A study of Mus musculus with 16 samples.

Results

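Sarcolipin, the SERCA calcium pumps and the calcium buffers of skeletal muscle were followed across quadriceps RNA of wild-type and *Mtm1* KO mice with and without tamoxifen. The members are the 9 genes *Sln*, *Pln*, *Atp2a1*, *Atp2a2*, *Casq1*, *Casq2*, *Pvalb*, *Srl* and *Hrc*, taken by their symbols from a count table of 41388 genes, in which each has 1 row. The *Mtm1* KO line carries a constitutive deletion of exon 4 made by homologous recombination, on a C57BL/6 background (C57BL6J in the methods of the study), and WT mice were its controls. *Mtm1* encodes myotubularin, a lipid phosphatase whose loss causes myotubular myopathy. WT + TAM and *Mtm1* KO + TAM mice received tamoxifen citrate in chow at 40 mg/kg from day 21, WT and *Mtm1* KO mice received standard chow without it, and muscle was taken at day 36 by the sample labels in all 4 groups. Each group has 4 libraries, 16 in all, and p values weigh a difference between groups against the spread between the libraries tested within them.

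Contraction starts when calcium leaves the sarcoplasmic reticulum, and relaxation requires that it be pumped back. SERCA1 (*Atp2a1*) is the pump of fast fibers and SERCA2 (*Atp2a2*) that of slow fibers and heart. Sarcolipin (*Sln*) and phospholamban (*Pln*) are small membrane proteins that bind SERCA and restrain it, and sarcolipin also makes the pump spend ATP without moving calcium, which produces heat. Inside the reticulum, calcium is held by calsequestrin and by the histidine-rich protein encoded by *Hrc*. *Casq1* encodes the main calsequestrin of fast fibers, and *Casq2*, also expressed in slow fibers, that of heart. *Srl* encodes sarcalumenin, a luminal glycoprotein that stabilizes SERCA. Parvalbumin (*Pvalb*) is the soluble calcium buffer of fast mouse fibers and speeds their relaxation.

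The study used 14 of the 16 libraries and gave no reason for leaving out the one labelled WT replicate 1 and the one labelled KO replicate 12. The 14 libraries are the main set here, with 3 libraries in each untreated group and 4 in each group given tamoxifen, and values of the 2 libraries set aside are given beside them. Library totals ranged from 25702605 to 29847222 counts in the main set. As a check of the labels, *Mtm1* had 341 to 369 counts in WT, 282 to 459 in WT + TAM, 63 to 76 in *Mtm1* KO and 53 to 97 in *Mtm1* KO + TAM. In the library labelled WT replicate 1 *Mtm1* had 74 counts, which lies in the range of the KO libraries, and in that labelled KO replicate 12 it had 85. *Sln* in the library labelled WT replicate 1 was nevertheless at the WT level, with 102 counts. These libraries also stood apart from their groups in *Hrc*, at 1687 CPM (counts scaled by library size after TMM normalization) in WT replicate 1 and 1276 CPM in KO replicate 12, against 783 to 1199 CPM in the main set. Of all quadriceps libraries, WT replicate 1 had the highest summed level of 7 slow fiber markers, 1409 RPKM (reads scaled by gene length and library total), against 4.25 to 315 RPKM in WT of the main set.

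The members do not lie together in the genome (GRCm38, annotation GENCODE vM21). *Sln* (ENSMUSG00000042045, chr9:53850164-53854560, plus strand) has 1 annotated transcript with 2 exons and no overlapping gene. *Atp2a1* (ENSMUSG00000030730, chr7:126445858-126463108, minus strand) overlaps *Rabep2* on the opposite strand, and *Atp2a2* (ENSMUSG00000029467) is at chr5:122453513-122502225. *Pln* (ENSMUSG00000038583, chr10:53337667-53345987, plus strand) lies within the span of *Cep85l*, on the opposite strand. The strand setting of the counting is not given in the sources used here, so reads of such pairs may not be told apart. *Pvalb* (ENSMUSG00000005716, chr15:78191114-78206400) and *Hrc* (ENSMUSG00000038239, chr7:45335290-45338974) overlap no annotated gene.

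The sequences just upstream of *Atp2a1*, *Casq1*, *Pvalb* and *Hrc* are shown because in the main set these 4 genes had lower CPM in every KO library, treated or not, than in any WT library, as given below. RefSeq promoter entries of GRCm38.p6 matched 6 of the 9 members and did not include *Sln*, *Atp2a2* and *Srl*. Each sequence is the 250 bases before the annotated start, written 5′ to 3′ on the strand of the gene, and *Pvalb* is shown at the first of its 2 starts. Capitals mark CAGCTG, an E-box of the type bound by MyoD and myogenin, and the MEF2 site, the binding motif of the MEF2 factors.
Atp2a1, chr7:126463074-126463323, minus strand: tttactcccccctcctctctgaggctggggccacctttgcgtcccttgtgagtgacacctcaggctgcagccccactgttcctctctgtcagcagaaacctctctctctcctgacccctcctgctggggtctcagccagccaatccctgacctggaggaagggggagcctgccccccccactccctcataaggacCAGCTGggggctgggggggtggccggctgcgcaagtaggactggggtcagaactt
Casq1, chr1:172219896-172220145, minus strand: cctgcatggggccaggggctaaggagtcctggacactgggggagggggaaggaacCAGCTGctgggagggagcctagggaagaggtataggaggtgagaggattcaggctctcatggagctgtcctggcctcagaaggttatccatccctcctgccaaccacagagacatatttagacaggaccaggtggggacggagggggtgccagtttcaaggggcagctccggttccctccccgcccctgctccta
Pvalb, chr15:78206401-78206650, minus strand: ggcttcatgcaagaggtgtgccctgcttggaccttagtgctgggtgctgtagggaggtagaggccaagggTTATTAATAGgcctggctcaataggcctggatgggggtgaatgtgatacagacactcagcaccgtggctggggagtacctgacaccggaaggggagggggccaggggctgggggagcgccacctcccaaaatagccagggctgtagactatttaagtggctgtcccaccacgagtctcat
Hrc, chr7:45335019-45335268, plus strand: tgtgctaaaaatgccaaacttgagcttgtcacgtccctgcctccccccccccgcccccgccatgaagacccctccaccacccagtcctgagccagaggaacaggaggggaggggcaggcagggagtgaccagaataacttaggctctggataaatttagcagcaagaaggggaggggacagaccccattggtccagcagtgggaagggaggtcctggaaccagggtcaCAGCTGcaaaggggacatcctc
On either strand, CAGCTG was found in the windows of *Atp2a1*, *Casq1* and *Hrc*, and the MEF2 site in that of *Pvalb*. Of 32851 promoter windows of this length, 4271 (13%) hold CAGCTG and 959 (2.92%) the MEF2 site. *Casq2*, whose CPM was not lower in *Mtm1* KO, also has a MEF2 site in its window. These matches are a description of the letters only.

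*Sln* was the member that differed most between genotypes. Its counts in WT were 50, 60 and 243 in replicates 2 to 4, and in *Mtm1* KO 7779, 5943 and 16702 in replicates 9 to 11. With tamoxifen, WT + TAM libraries had 118, 88, 62 and 36 counts and *Mtm1* KO + TAM libraries 6729, 25056, 11804 and 6379. On the CPM scale, *Sln* was 1.83, 2.57 and 9.25 in WT and 261, 194 and 534 in *Mtm1* KO. The lowest KO library, at 194 CPM, thus lay far above the highest WT library, at 9.25 CPM. Mean CPM was 72.4 times higher in *Mtm1* KO (329.6 ± 180.2, SD, n = 3) than in WT (4.55 ± 4.09, SD, n = 3). *Sln* rose in *Mtm1* KO by a log2 fold change of 6.16 (standard error 0.68, edgeR adjusted p = 0.00131), a change larger in size than that of 99.9% of the genes tested. Under tamoxifen the same contrast, *Mtm1* KO + TAM against WT + TAM, gave a log2 fold change of 6.89 (standard error 0.53, edgeR adjusted p = 4.63e-05). In RNA of whole muscle, a smaller number of cells of a type and less RNA per cell cannot be told apart, and this holds for every member. When WT replicate 1 (5.08 CPM) and KO replicate 12 (295 CPM) were included, the log2 fold change of *Sln* in *Mtm1* KO against WT was 6.09 (edgeR adjusted p = 6.72e-04).

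**Figure D1:**
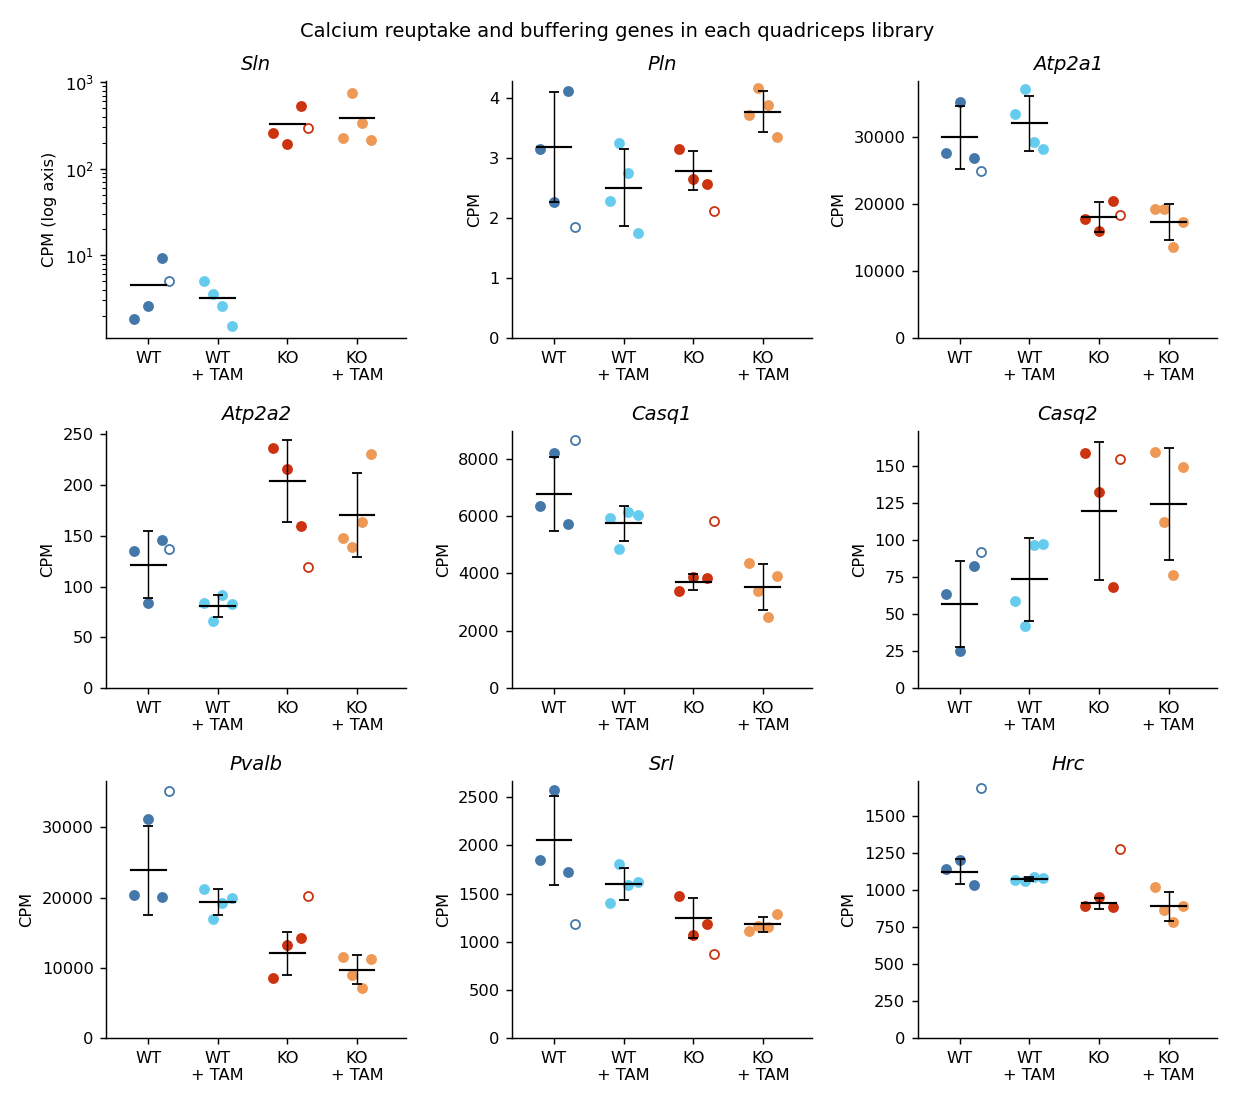
CPM of the 9 genes in each library, by group. Filled points are the 14 libraries of the main set, open points the 2 libraries set aside, long bars the mean of the filled points and error bars their SD (not drawn for *Sln*, on a log axis). *Sln* lay between 1.50 and 9.25 CPM in the 7 WT libraries and between 194 and 755 CPM in the 7 KO libraries, and *Atp2a1* lay lower in all KO libraries.

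*Sln* also varied widely between libraries of 1 group. In *Mtm1* KO + TAM, replicate 14 had 755 CPM, while replicates 13, 15 and 16 had 225, 339 and 213 CPM. Among untreated *Mtm1* KO libraries, replicate 11 was highest at 534 CPM, and the highest value was 2.75 times the lowest. The corresponding ratio was 3.54 in *Mtm1* KO + TAM, 3.38 in WT + TAM and 5.05 in WT. Counting error was small beside this spread in the KO libraries, where it was 0.632% to 1.30% of the count, and was 6.42% to 16.7% in the 7 WT libraries. The SD of *Sln* within groups was 0.89 on the log2 scale over the 14 libraries (10 degrees of freedom), larger than that of 94.7% of 15556 genes, whose median was 0.27. *Casq2* came next among the members with 0.66, and *Hrc* was the steadiest with 0.11, a lower value than that of all but 3.41% of genes. As a ratio, the spread of *Sln* within each KO group was nonetheless far smaller than the difference between genotypes. The ratio of mean CPM between genotypes was 72.4 without tamoxifen and 120 with it.

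No other member followed the deviations of *Sln* between libraries closely. Over the 14 libraries, with group means removed, the correlation of log2 CPM was 0.54 between *Sln* and *Pln*, 0.26 between *Sln* and *Atp2a1*, -0.18 between *Sln* and *Atp2a2* and -0.48 between *Sln* and *Hrc*. *Casq1* went with *Pvalb* (0.87) and with *Hrc* (0.87), and *Atp2a2* with *Casq2* (0.79), while *Atp2a1* and *Atp2a2* went in opposite directions (-0.63). These values are given as a description, and the points share the scaling of their library. The 5 genes of 15555 whose deviations were most like those of *Sln* by this measure were *Olfr920* (0.95), *Gm13496* (0.94), *Pgap3* (0.93), *Fa2h* (0.92) and *Col20a1* (0.91). *Olfr920* had 0 to 40 counts and *Gm13496* 0 to 65 counts in the 14 libraries, so that their values rest on few reads, and *Pgap3* had 53 to 155. In replicate 14 of *Mtm1* KO + TAM, where *Sln* was highest, *Fa2h* and *Col20a1* also had their highest counts, with 112 and 320. Because the 5 genes were picked for their likeness to *Sln* over these same libraries, this adds no separate support.

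Markers of developing and regenerating fibers moved with genotype beside *Sln*. The 7 markers of this list are *Myh3*, *Myh8*, *Myl4*, *Ncam1*, *Myog*, *Chrna1* and *Chrng*, and their summed level was 24.8 to 25.7 RPKM in WT, 18.3 to 36.8 RPKM in WT + TAM, 122 to 168 RPKM in *Mtm1* KO and 86.7 to 128 RPKM in *Mtm1* KO + TAM. All 7 rose in *Mtm1* KO against WT and all 7 rose in *Mtm1* KO + TAM against WT + TAM. Sarcolipin is also an atrial protein, and of 6 heart markers *Tnnt2* alone rose in both contrasts, a gene also expressed in developing skeletal muscle. The heart markers *Myl7*, *Nppa* and *Nppb* had 0 counts in 15, 11 and 14 of the 16 libraries and at most 4, 3 and 3 counts. The part of fiber development in the level of *Sln* was not tested.

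Phospholamban, the relative of sarcolipin in heart and slow muscle, did not share this change. *Pln* was 3.15, 2.27 and 4.11 CPM in WT, 2.28, 3.24, 2.74 and 1.75 CPM in WT + TAM, 3.15, 2.64 and 2.56 CPM in *Mtm1* KO, and 3.71, 4.16, 3.87 and 3.34 CPM in *Mtm1* KO + TAM. Its libraries rest on 42 to 138 counts, and the genotypes overlapped. The log2 fold change was -0.20 in *Mtm1* KO against WT (standard error 0.29, edgeR adjusted p = 0.688) and 0.57 in *Mtm1* KO + TAM against WT + TAM (standard error 0.22, edgeR adjusted p = 0.103). Without TMM scaling, by library size only, the first of these was 0.11 and had the opposite sign.

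Of other small proteins known to bind SERCA, *Mrln*, listed as 2310015B20Rik, encodes myoregulin, an inhibitor of the pump in skeletal muscle. It was 46.5, 79.7 and 57.9 CPM in WT and 24.2, 30.6 and 46.0 CPM in *Mtm1* KO, a log2 fold change of -0.86 (standard error 0.26, edgeR adjusted p = 0.0582). Under tamoxifen it was 64.0, 44.9, 74.1 and 73.4 CPM in WT + TAM and 29.6, 20.9, 25.7 and 37.8 CPM in *Mtm1* KO + TAM, and it fell by 1.19 on the log2 scale (standard error 0.20, edgeR adjusted p = 0.00297). In CPM the groups did not overlap in either contrast, though narrowly without tamoxifen, at 46.0 CPM in *Mtm1* KO replicate 11 against 46.5 CPM in WT replicate 2. In deposited RPKM these 2 groups overlapped, with 43.3 RPKM in *Mtm1* KO replicate 11 and 38.0 RPKM in WT replicate 2. The library labelled KO replicate 12 had 51.9 CPM of *Mrln*, within the WT range. *Arln*, listed as 1810037I17Rik and encoding another-regulin, had a log2 fold change of 0.51 in *Mtm1* KO against WT (edgeR adjusted p = 0.132). *Erln*, listed as Smim6, had 0 to 11 counts and was not tested, and *Strit1* was not analysed here.

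A comparison of genes by level needs a value per length, for which the deposited RPKM was used. The counts and RPKM of *Sln* imply a length of 515 bases, where the annotation holds a transcript of 1318 bases, so its RPKM would be 2.56 times lower with the annotated length. Values at that length, a choice made after seeing the data, are given beside the main values that rest on it. In the 7 WT and WT + TAM libraries, *Mrln* was 2.73 to 21.3 times as high as *Sln* in RPKM. In all 7 KO libraries *Sln* was higher than *Mrln*, by 12.9 to 82.7 times, or 5.05 to 32.3 times at the annotated length. As a share of the summed RPKM of *Sln*, *Mrln* and *Pln*, *Sln* made up 4.44% to 26.1% in the WT libraries and 92.5% to 98.7% in the KO libraries. At the annotated length these shares were 1.78% to 12.1% and 82.9% to 96.7%. WT replicate 1 and KO replicate 12, set aside, had shares of 9.54% and 92.8% by the deposited RPKM. These ratios are taken within a library and do not depend on scaling between libraries.

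**Figure D2:**
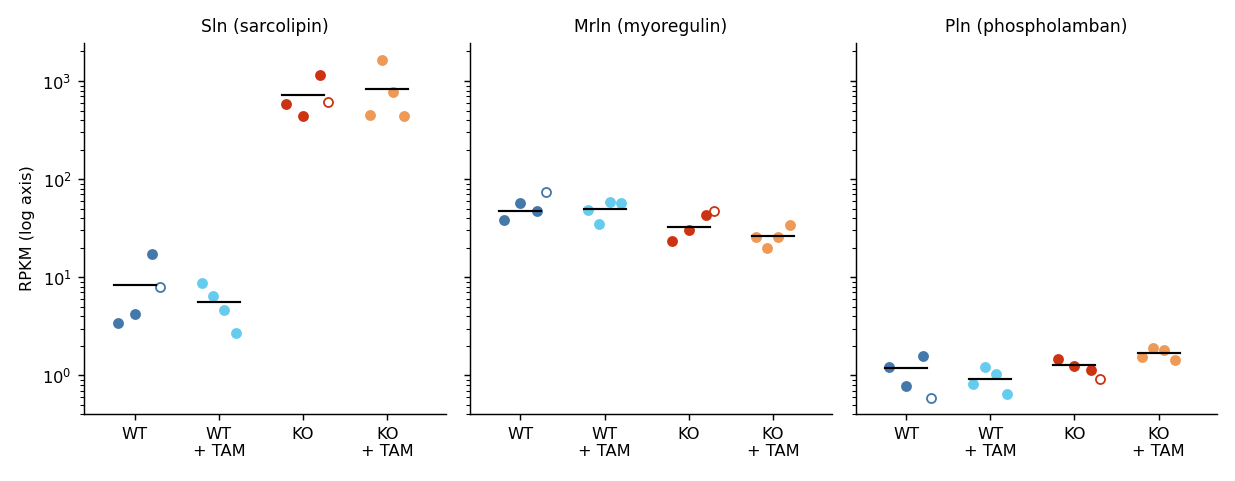
Deposited RPKM of *Sln*, *Mrln* and *Pln* by library, on 1 log axis shared by the 3 panels. Filled points are the main set, open points the 2 libraries set aside, and bars the mean of the filled points. *Mrln* lay above *Sln* in every WT library and below it in every KO library.

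The pumps had log2 fold changes of opposite sign with and without tamoxifen, *Atp2a1* lower and *Atp2a2* higher in *Mtm1* KO. Both passed 0.01 only in tamoxifen-fed mice. *Atp2a1*, by far the more abundant, was 27711, 35358 and 26939.5 CPM in WT and 17856, 15992 and 20536 CPM in *Mtm1* KO. It was 33460.2, 37248, 29387 and 28236 CPM in WT + TAM and 19249.9, 19252, 13649 and 17383 CPM in *Mtm1* KO + TAM. No KO library reached the lowest WT library in either contrast. *Atp2a1* fell by 0.90 on the log2 scale in *Mtm1* KO + TAM against WT + TAM (standard error 0.17, edgeR adjusted p = 0.00589). In *Mtm1* KO against WT its log2 fold change was -0.72 (standard error 0.20, edgeR adjusted p = 0.0442), which did not pass the threshold of 0.01. The first of these calls was lost without WT + TAM replicate 5 (adjusted p = 0.0150), 6 (0.0141), 7 (0.0159) or 8 (0.0134) and without *Mtm1* KO + TAM replicate 14 (0.0132), 15 (0.0112) or 16 (0.0137), all from edgeR, with log2 fold changes of -0.96 to -0.79 over all 8 libraries left out.

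*Atp2a2* was 135, 84.1 and 146 CPM in WT and 237, 216 and 159 CPM in *Mtm1* KO, so that the groups did not overlap, and its log2 fold change was 0.74 (standard error 0.23, edgeR adjusted p = 0.0653). With tamoxifen it was 83.9, 66.5, 91.7 and 82.6 CPM in WT + TAM and 148, 139, 163 and 231 CPM in *Mtm1* KO + TAM. *Atp2a2* rose in this second contrast by a log2 fold change of 1.05 (standard error 0.17, edgeR adjusted p = 0.00214). The library labelled KO replicate 12 had 119.8 CPM, within the WT range. As a share of the summed RPKM of both pumps, *Atp2a2* averaged 0.277% for WT (SD 0.106, n = 3) and 0.751% for *Mtm1* KO (SD 0.211, n = 3). The averages with tamoxifen were 0.170% for WT + TAM (SD 0.0388, n = 4) and 0.656% for *Mtm1* KO + TAM (SD 0.197, n = 4). All 7 KO libraries, from 0.473% to 0.881%, lay above all 7 WT libraries, from 0.117% to 0.355%. *Atp2a1* thus made up nearly all pump mRNA in every library.

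Relative to the pumps it restrains, *Sln* stood at 0.108 RPKM per 100 RPKM of *Atp2a1* and *Atp2a2* in WT (SD 0.107, n = 3) and at 11.8 in *Mtm1* KO (SD 5.00, n = 3). The values were 0.0658 for WT + TAM (SD 0.0276, n = 4) and 14.8 for *Mtm1* KO + TAM (SD 8.74, n = 4). At the annotated length of *Sln* these means were 0.0423 in WT, 4.61 in *Mtm1* KO, 0.0257 in WT + TAM and 5.77 in *Mtm1* KO + TAM. By the deposited RPKM, the lowest KO library had 7.85 and the highest, replicate 14 of *Mtm1* KO + TAM, had 26.4.

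**Figure D3:**
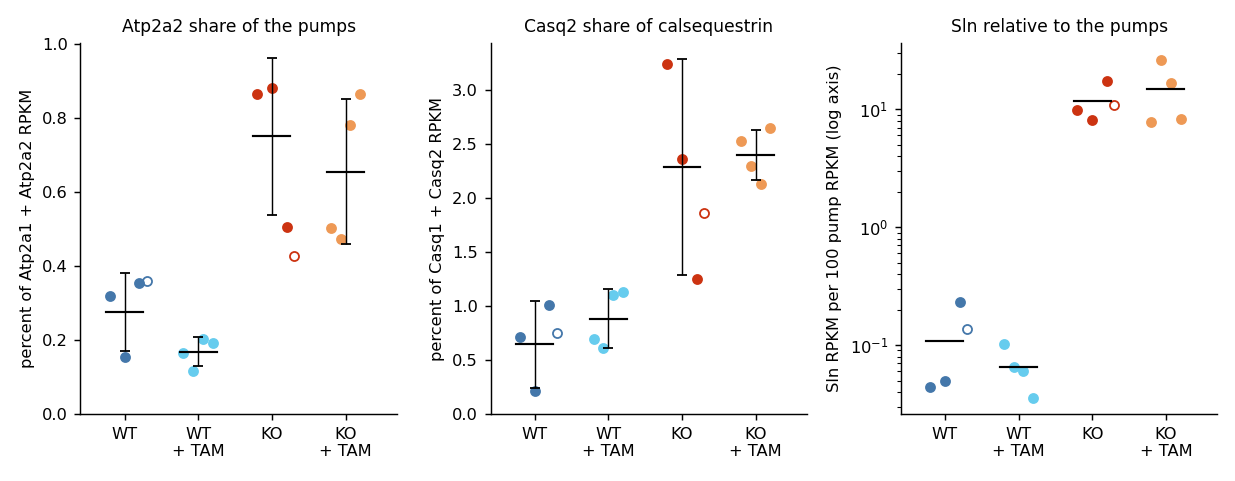
Ratios of deposited RPKM within each library: *Atp2a2* as a percent of both pumps, *Casq2* as a percent of both calsequestrins, and *Sln* per 100 units of pump (log axis). Filled points are the main set with their mean and SD (no SD on the log axis), and open points the 2 libraries set aside. For the 14 filled points, KO libraries lay above WT libraries in all 3 panels.

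Neither form of calsequestrin passed the test at 0.01, although the balance of *Casq1* and *Casq2* differed between genotypes. *Casq1* was 6345, 8201 and 5717 CPM in WT, 5946, 4835, 6157 and 6050.1 CPM in WT + TAM, 3378, 3884 and 3832 CPM in *Mtm1* KO, and 4370.2, 3390.2, 2496 and 3904 CPM in *Mtm1* KO + TAM. All KO libraries were below all WT libraries on this scale. Its log2 fold change was -0.86 in *Mtm1* KO against WT (standard error 0.18, edgeR adjusted p = 0.0177) and -0.72 in *Mtm1* KO + TAM against WT + TAM (standard error 0.18, edgeR adjusted p = 0.0217), past 0.05 and not past 0.01. The library labelled KO replicate 12 had 5818 CPM, which lies among the WT libraries.

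*Casq2* was 63.8, 25.2 and 82.0 CPM in WT, 58.5, 41.7, 96.5 and 97.0 CPM in WT + TAM, 159, 132 and 68.3 CPM in *Mtm1* KO, and 159, 112, 76.3 and 149 CPM in *Mtm1* KO + TAM. Here the genotypes overlapped, and the log2 fold changes of 1.06 (standard error 0.42, edgeR adjusted p = 0.129) and 0.74 (standard error 0.29, edgeR adjusted p = 0.105) did not pass. As a share of the summed RPKM of both calsequestrins, *Casq2* was 0.648% ± 0.401 in WT and 2.29% ± 0.996 in *Mtm1* KO (SD, n = 3 each). It was 0.218% to 1.13% over the 7 WT libraries and 1.26% to 3.24% over the 7 KO libraries. WT replicate 3, with the lowest *Casq2* (25.2 CPM), also had the lowest summed level of slow fiber markers, 4.25 RPKM, and a low *Atp2a2* (84.1 CPM). *Mtm1* KO replicate 11 was the lowest of its group in *Casq2* and *Atp2a2* and in the slow fiber markers, with 175 RPKM against 357 and 679 RPKM in replicates 9 and 10. WT + TAM replicate 6 was likewise the lowest of its group in each. In *Mtm1* KO + TAM they did not go together. Replicate 15 was lowest in *Casq2* (76.3 CPM), with slow fiber markers at 322 RPKM. Replicate 14 was lowest in the slow fiber markers (160 RPKM) and in *Atp2a2*, and replicate 13 was highest in the markers (522 RPKM) with *Atp2a2* at 148 CPM.

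Parvalbumin was the most abundant member per length and was lower in *Mtm1* KO with and without tamoxifen. Between genotypes on the same diet it passed 0.01 by edgeR only with tamoxifen, while DESeq2 called it without tamoxifen as well and it did not pass the test of the interaction. *Pvalb* was 20365, 31100.0 and 20061 CPM in WT and 8623, 13230.2 and 14319.7 CPM in *Mtm1* KO, a log2 fold change of -0.98 (standard error 0.26, edgeR adjusted p = 0.0414). With tamoxifen it was 21271, 16945, 19285 and 19874 CPM in WT + TAM and 11577, 9065, 7216 and 11222 CPM in *Mtm1* KO + TAM. *Pvalb* fell by 1.00 on the log2 scale in this contrast (standard error 0.18, edgeR adjusted p = 0.00418), and no KO library reached a WT library. The call was lost without WT + TAM replicate 5 (edgeR adjusted p = 0.0110), 7 (0.0139) or 8 (0.0143) or without *Mtm1* KO + TAM replicate 14 (0.0161). The library labelled KO replicate 12 had 20164 CPM, close to the WT libraries. *Pvalb* per 100 RPKM of the pumps was 262 ± 27.3 in WT and 222 ± 57.7 in *Mtm1* KO (SD, n = 3 each), so that pump and buffer were lower in a like proportion and the ranges overlapped.

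The luminal proteins sarcalumenin and *Hrc* did not pass between genotypes under the same diet. *Srl* was 1853, 2580.1 and 1729 CPM in WT, 1399.7, 1803, 1592 and 1626 CPM in WT + TAM, 1475, 1072 and 1185 CPM in *Mtm1* KO, and 1114, 1169, 1158 and 1295 CPM in *Mtm1* KO + TAM. Its log2 fold change was -0.72 in *Mtm1* KO against WT (standard error 0.19, edgeR adjusted p = 0.0395) and -0.46 in *Mtm1* KO + TAM against WT + TAM (standard error 0.12, edgeR adjusted p = 0.0241). *Srl* did pass in *Mtm1* KO + TAM against untreated WT, where it fell by 0.82 on the log2 scale (standard error 0.16, edgeR adjusted p = 0.00598), a call lost with the library labelled WT replicate 1 added (0.0869) and without any of WT replicates 2, 3 and 4 or *Mtm1* KO + TAM replicates 13, 14 and 15 (0.0126 to 0.0191).

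*Hrc* was 1138, 1199 and 1033 CPM in WT, 1064, 1063, 1088 and 1084 CPM in WT + TAM, 892, 954 and 883 CPM in *Mtm1* KO, and 1019, 864, 783 and 891 CPM in *Mtm1* KO + TAM. The genotypes did not overlap in CPM, but the log2 fold change of -0.30 in *Mtm1* KO against WT (standard error 0.13, edgeR adjusted p = 0.162) did not pass. On the deposited RPKM, which is scaled by library totals alone, *Hrc* was 395 to 455 in the WT libraries and 380 to 466 in the KO libraries, with overlap.

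Over the 9 members, 1 of 9 passed an adjusted p of 0.01 in *Mtm1* KO against WT, where 3.60% of all 14740 genes tested did (1.91% higher, 1.69% lower). All 9 members were tested in each comparison, and 8 of them had an unadjusted p under 0.05, against 30.1% of genes. DESeq2 called 6 of 9 in this contrast, against 10.2% of the 15919 genes to which it gave an adjusted p, adding *Atp2a1*, *Atp2a2*, *Casq1*, *Pvalb* and *Srl*. In *Mtm1* KO + TAM against WT + TAM 4 of 9 passed, 2 higher and 2 lower, against 6.72% of 14563 genes (3.42% higher, 3.30% lower), and DESeq2 called 6 of 9, against 12.3% of genes. The count by edgeR was 2 without WT + TAM replicate 5, 7 or 8 or without *Mtm1* KO + TAM replicate 14. The median log2 fold change over the members was -0.30 in the first contrast and -0.29 in the second, beside 0.02 and -0.01 over all genes tested. Between the 7 KO and the 7 WT libraries, treated and untreated together, 5 of 9 members did not overlap in CPM (*Sln* higher, and *Atp2a1*, *Casq1*, *Pvalb* and *Hrc* lower), against 10.7% of 15556 genes. In deposited RPKM 3 of 9 did not overlap (*Sln* and *Atp2a2* higher, *Atp2a1* lower), against 17.3% of genes. Together the 9 genes took 5.25% to 6.64% of all counts in the WT libraries and 3.02% to 4.61% in the KO libraries. Scaling by library size alone put the median over all genes tested at a log2 fold change of 0.33 in *Mtm1* KO against WT and at 0.27 in *Mtm1* KO + TAM against WT + TAM.

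**Figure D4:**
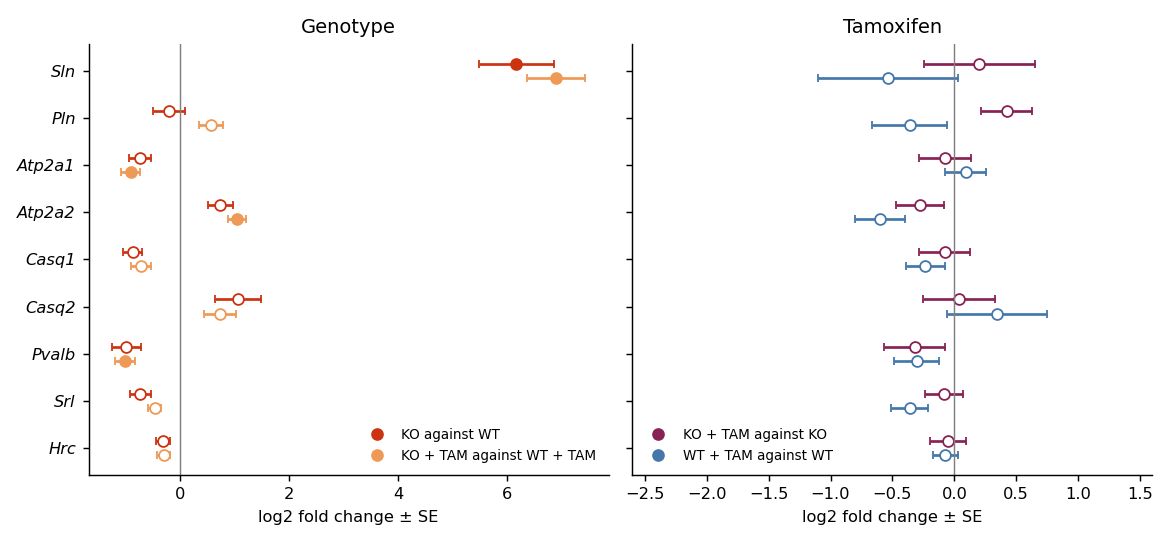
Log2 fold changes with their standard errors for the 9 genes, between genotypes (left) and between tamoxifen and no tamoxifen (right, with another x axis range). Filled points passed an adjusted p of 0.01 in edgeR and open points did not. *Sln* lay at 6.16 and 6.89 between genotypes, and no member passed for tamoxifen.

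Order of level also shifted. By mean RPKM in WT the members ran from *Pvalb* (20834), *Atp2a1* (7877) and *Casq1* (3162) over *Hrc* (428), *Srl* (352), *Atp2a2* (21.4) and *Casq2* (19.6) to *Sln* (8.26) and *Pln* (1.19). In *Mtm1* KO *Sln* was the fourth in order, with 724 ± 376 RPKM (SD, n = 3), above *Hrc* (432 ± 31.0). *Sln* and *Hrc* overlapped there, with *Sln* at 444 to 1151 RPKM and *Hrc* at 407 to 466 RPKM. This place rests on the length of *Sln*, which at its annotated length had 283 ± 147 RPKM (SD, n = 3, 173 to 449.8) and was below *Hrc* and above *Srl* (267), overlapping both. *Atp2a2* and *Casq2* overlapped in every group. The other neighbours in the WT order did not overlap except *Hrc* with *Srl* (409 to 455 RPKM against 309.5 to 409.7 RPKM) and *Casq2* with *Sln* (7.78 to 28.6 RPKM against 3.43 to 17.1 RPKM, or 1.34 to 6.69 RPKM with no overlap at the annotated length of *Sln*). At that length *Sln* instead overlapped *Pln* (0.775 to 1.58 RPKM).

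Fast fiber markers did not all move one way. Of 9 fast fiber markers, *Actn3* and *Mybpc2* fell in *Mtm1* KO against WT (median log2 fold change of the list -0.81), and *Myh4*, *Actn3* and *Mybpc2* fell in *Mtm1* KO + TAM against WT + TAM (median -0.59). *Myh1* and *Myh2*, fast myosins of less glycolytic fibers, had positive log2 fold changes that did not pass, 0.97 and 1.21 in the first contrast and 0.78 and 1.51 in the second, and the other members of the list were negative in both. Their summed level was 63341 to 78668 RPKM over the 7 WT libraries and 45634 to 60428 RPKM over the 7 KO libraries. Of 7 slow fiber markers 0 passed edgeR's test in *Mtm1* KO against WT, with 2 at an unadjusted p under 0.05 and a median log2 fold change of 1.81. With tamoxifen in both genotypes, *Tnni1* and *Myoz2* rose (median of the list 1.82), while *Myh7*, *Myl2*, *Tnnt1* and *Tnnc1* were positive and did not pass. *Myl3* went the other way, with log2 fold changes of -0.58 in the first contrast and -0.06 in the second, neither of which passed. The summed slow fiber level was 4.25 to 315 RPKM in WT, 16.02 to 163 RPKM in WT + TAM, 175 to 679 RPKM in *Mtm1* KO and 160 to 522 RPKM in *Mtm1* KO + TAM. The part of fiber type in the members' changes was not tested. Of the markers of smooth muscle, fat cells, immune cells and red blood cells, 0 passed edgeR's test in either contrast. An unadjusted p under 0.05 was reached in *Mtm1* KO against WT by 3 of 5 smooth muscle markers and 3 of 3 immune markers tested, and by 0 of the others. The summed level of 4 immune markers was 2.50 to 6.93 RPKM over the 7 WT libraries and 8.06 to 33.2 RPKM over the 7 KO libraries, and its part in the members' changes was not tested.

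Tamoxifen itself was compared within each genotype, which asks whether treatment changed these genes in mutant or in healthy muscle. In *Mtm1* KO + TAM against *Mtm1* KO, 0 of 9 members passed edgeR's test, 0 had an unadjusted p under 0.05, and DESeq2 and limma also called 0. Of 15062 genes 0 were called by edgeR (0%), with 1137 at an unadjusted p under 0.05, and DESeq2 called 68 (0.457%). *Sln* had a mean of 383 ± 254 CPM (SD, n = 4) with tamoxifen and 329.6 ± 180.2 CPM (SD, n = 3) without, a log2 fold change of 0.20 with a standard error of 0.45. It was -0.37 without *Mtm1* KO + TAM replicate 14, -0.06 without *Mtm1* KO replicate 10 and 0.75 without *Mtm1* KO replicate 11, so that single libraries set its sign. The largest of the 9 was *Pln*, with 0.42 (standard error 0.21, edgeR adjusted p = 0.690), whose groups did not overlap in CPM. In deposited RPKM they did, at 1.145 to 1.451 in *Mtm1* KO and 1.426 to 1.892 in *Mtm1* KO + TAM. *Atp2a1* had -0.08 (standard error 0.21) and *Casq1* -0.08 (standard error 0.21).

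In WT + TAM against WT, 0 of 9 members were called, against 0.131% of 14544 genes, and 2 had an unadjusted p under 0.05, while DESeq2 (1.23% of genes called) and limma called 0. These 2 were *Atp2a2*, with a log2 fold change of -0.60 (standard error 0.20, edgeR adjusted p = 0.315), and *Srl*, with -0.36 (standard error 0.15, edgeR adjusted p = 0.435). Many genes reached such values: *Atp2c1*, at an unadjusted edgeR p of 0.0492 in this contrast, ranked 1524 by p among the 14544 genes. *Sln* had a log2 fold change of -0.53 (standard error 0.57), which was 0.55 without WT replicate 4, the library with 243 counts. The difference between the tamoxifen effects in the genotypes was tested as an interaction, and 0 of 9 members (also 0 by DESeq2 and limma) and 0 of 15556 genes (0%) passed in edgeR, with 664 genes at an unadjusted p under 0.05 and 12 called by DESeq2 (0.0845%). Only *Pln* had an unadjusted p under 0.05, with a difference of 0.79 (standard error 0.35, edgeR adjusted p = 0.9998). In *Mtm1* KO + TAM against untreated WT, 3 of 9 members were called, against 7.70% of 14942 genes: *Sln* (log2 fold change 6.36, standard error 0.71, edgeR adjusted p = 4.85e-04), *Pvalb* (-1.31, standard error 0.24, edgeR adjusted p = 0.00417) and *Srl*. The call of *Pvalb* was lost without WT replicate 3 (edgeR adjusted p = 0.0118) or 4 (0.0119) or *Mtm1* KO + TAM replicate 14 (0.0156). DESeq2 called 5 of 9 in this contrast, against 14.2% of genes. This contrast shares its libraries with the others.

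Other genes of calcium handling were taken from 7 lists with 52 genes, of which 51 are in the table. Of 45 tested in *Mtm1* KO against WT, 4 were called, all of them lower, against 3.60% of all genes (1.69% lower), and 27 had an unadjusted p under 0.05, against 30.1%, with a median log2 fold change of 0.12. Among them were *Calm3*, which encodes calmodulin, *Camk2a*, a calmodulin-dependent kinase, and *Ppp1r3a*, which targets protein phosphatase to glycogen and the reticulum. *Calm3* was 427, 657 and 403 CPM in WT and 173, 129 and 176 CPM in *Mtm1* KO, and it fell by 1.63 on the log2 scale (standard error 0.21, edgeR adjusted p = 0.00216). *Ppp1r3a* fell by 1.06 (standard error 0.17, edgeR adjusted p = 0.00553) and *Camk2a* by 1.05 (standard error 0.17, edgeR adjusted p = 0.00633). With all 16 libraries, 1 gene of these lists was called. The count was also 1 without WT replicate 2, WT replicate 4, *Mtm1* KO replicate 10 or *Mtm1* KO replicate 11, and 2 without *Mtm1* KO replicate 9.

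With tamoxifen in both genotypes, 8 of 46 were called, 3 higher and 5 lower, against 6.72% of all genes (3.42% higher, 3.30% lower), with a median of 0.13. The count was 5 without *Mtm1* KO + TAM replicate 14 and 4 without replicate 15. *Micu2*, which encodes a gatekeeper of the mitochondrial calcium uniporter, was 37.9, 44.3, 50.6 and 44.3 CPM in WT + TAM and 73.8, 83.5, 93.5 and 71.7 CPM in *Mtm1* KO + TAM. It rose by a log2 fold change of 0.84 (standard error 0.13, edgeR adjusted p = 0.00152). *Camk2d* also rose (log2 fold change 1.00), while *Calm3* (-1.22), *Mrln* (-1.19), *Atp2b3* (-1.14), a calcium pump of the plasma membrane, *Camk2a* (-0.87) and *Camk2g* (-0.64) fell. Of the 10 other luminal calcium-binding proteins, such as calreticulin and *Hspa5*, 0 passed edgeR's test in either contrast, with 5 at an unadjusted p under 0.05 in each and median log2 fold changes of 0.35 and 0.29. Of 7 genes of store-operated entry, which refills the reticulum from outside the cell, 0 passed edgeR's test in either contrast, with 3 and 4 at an unadjusted p under 0.05. The genes for other cytosolic buffers, *Ocm*, *Calb1* and *Calb2*, were too low to be tested.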

How the data were processed

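The deposited raw counts and RPKM of 16 quadriceps libraries were used. Per the authors, reads were aligned with STAR to GRCm38 in 2 steps and counted per gene with HTSeq, and counts were not scaled. The authors' deposited RPKM values are these counts divided by library total and gene length. The submitters' processing notes also name bcl2fastq 2.17, STAR 2.5.0c and Cufflinks 2.2.1. Annotation, counting mode and strand setting were not given in the sources used here.

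Members and lists were chosen with earlier results of these data known. Counts of the groups compared were tested in R 4.3.3 with edgeR 4.0.16 (TMM, filterByExpr with a minimum count of 10 and total of 15, quasi-likelihood test), with Benjamini-Hochberg adjustment over all genes and a threshold of 0.01. The interaction used 1 fit of 4 groups. CPM values are after TMM over 16 libraries. Correlations used log2 CPM with a prior count of 2. Named genes were the 9 members, at most 12 listed calcium genes called between genotypes, and 5 genes most like *Sln*. Some listed calcium genes are counted but not reported here by name. Other genes, such as *Arln*, *Erln* and single markers, were named after their values were seen. Alternatives were DESeq2 1.42.0, limma 3.58.1 on log2 RPKM plus 1 or 0.1, a threshold of 0.05, RLE, library size only, no filter, 1 fit, 16 libraries, and leaving out each library. The tests were checked on simulated data. No column of another series was found (0), and 0 of 120 library pairs had identical counts. Counting errors cover sampling of reads only.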

Additional observations from a re-analysis of the deposited data

Results flagged for a closer look

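Each group of 4 libraries was searched for a library far from the others, by its gap to the nearest library over the range of the group (Dixon's 95% critical value). Chance gives such a library in about 1 of 20 groups, and 1 was found in 36 groups (9 members in 4 groups of all 16 libraries). *Casq1* in WT + TAM replicate 6 was 4835 CPM, below the 5946 to 6157 CPM of the other 3 libraries of the group, with a gap of 0.841 of the range.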

How the results depend on the processing

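*Sln* kept its direction and passed in all 15 alternatives for *Mtm1* KO against WT, with log2 fold changes from 5.62 to 7.24. The counts of members called there were 6 with DESeq2, 5 at a threshold of 0.05, 3 with no filter and 3 in 1 fit of 4 groups. For *Mtm1* KO + TAM against WT + TAM they were 2 with limma at either pseudocount and 2 to 4 with 1 library left out. For *Mtm1* KO + TAM against WT they were 5 with DESeq2, at 0.05 and in 1 fit, 6 with no filter, 1 with limma at either pseudocount and 1 to 3 with 1 library left out. Counts of other calcium genes called were, for *Mtm1* KO against WT, 11 with DESeq2 and at 0.05, 10 by library size only, 1 with 16 libraries and 1 to 3 with 1 library left out. For *Mtm1* KO + TAM against WT + TAM they were 14 with DESeq2, 15 at 0.05 and 4 to 8 with 1 left out, and for *Mtm1* KO + TAM against WT 16, 17 and 2 to 8, and 2 with 16 libraries.

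No called log2 fold change of a member changed sign. Among those not called, *Pln* and *Hrc* in *Mtm1* KO against WT were 0.073 and 0.011 with limma on RPKM plus 1, 0.14 and 0.011 plus 0.1, and 0.11 and 0.013 by library size only, and *Pln* was -0.40 to 0.046 with 1 library left out. In *Mtm1* KO + TAM against *Mtm1* KO, *Casq2* was -0.035 by library size only and -0.070 with 16 libraries, and *Srl* 0.019 with 16. Ranges there with 1 library left out were -0.37 to 0.75 for *Sln*, -0.15 to 0.031 for *Atp2a1*, -0.19 to 0.060 for *Casq1*, -0.24 to 0.28 for *Casq2*, -0.18 to 0.043 for *Srl* and -0.12 to 0.012 for *Hrc*. In WT + TAM against WT they were -0.91 to 0.55 for *Sln* and -0.016 to 0.72 for *Casq2*. For the interaction, *Hrc* was -0.031 with limma at either pseudocount and -0.030 by library size only, and leaving out 1 library gave -0.33 to 1.29 for *Sln*, -0.67 to 0.059 for *Casq2*, -0.23 to 0.14 for *Pvalb* and -0.038 to 0.093 for *Hrc*. The cause of these changes was not tested. The lowest counts a library were those of *Pln* (42 to 138) and of *Sln* in the WT libraries (36 to 243). No paired analysis was possible because replicate numbers are not shared between groups.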
